A study of Mus musculus with 8 samples.

Results

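The SLC25 family comprises the carrier proteins that move nucleotides, phosphate, metabolites and cofactors across the inner mitochondrial membrane. Its transcripts were examined in 8 mice of a Swiss Agouti background, aged 12 months, in RNA of the left ventricle and septum. The members were all probes of an Illumina bead array whose gene symbol in the deposited table starts with Slc25a. There were 43 such probes for 28 genes, of 25697 probes for 18120 symbols in all. A probe counted as detected when its deposited detection p-value was under 0.01 on at least 4 of 8 arrays, and by this rule 31 probes of 22 genes were detected. The mice were 4 heterozygotes for a knock-in deletion, a model of increased late sodium current per the series title, and 4 wild-type littermates. Both groups shared background and age, each mouse gave 1 array, and the labels call the mice biological replicates. The comparison asks whether carrier transcripts differ in hearts that the title describes as prone to fibrosis with age.

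A carrier of this family is a small protein built of repeated pairs of membrane-spanning helices, and most members exchange one substrate for another. In the heart, adenine nucleotide carriers export the ATP made by oxidative phosphorylation in exchange for ADP, and the phosphate carrier returns phosphate to the ATP synthase. The carnitine-acylcarnitine carrier admits fatty acids for oxidation, while the oxoglutarate and aspartate-glutamate carriers form the membrane steps of the malate-aspartate shuttle, which brings the reducing power of cytosolic NADH into the matrix.

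Each array detected 10094 to 11545 of its 25697 probes. Heterozygote 3 stood apart: its array correlated with the rest at 0.950 on average, where the others reached 0.971 to 0.977. Differences that move without it are mostly given both ways. All 7 measured cardiomyocyte markers were detected, 1 higher in heterozygotes and 6 lower, with 0 passing. Markers of other tissues were present unevenly. Scgb1a1 of the airway lining was at 10646 in heterozygote 3, 6624 in wild type 1, 591 in heterozygote 4 and 262 in wild type 4, and no higher than 5.67 in the other mice, in deposited intensity. Of 9 lung epithelium markers on the array, it was the only 1 to meet the detection rule, and Cldn18 and Ager were detected on 0 arrays. In RNA from whole tissue, fewer cells of a type and less RNA per cell cannot be told apart.

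Detection was common among the carriers. Of the 43 probes, 26 were detected on all 8 arrays, 4 on 7, 1 on 5, 5 on 1 or 2, and 7 on none. The share that met the rule was 72.1%, against 41.0% of all probes on the array. The 6 genes with no probe that met it were Slc25a4, the glutamate carriers Slc25a18 (detected on 1 array) and Slc25a22 (0), the oxodicarboxylate carrier Slc25a21 (0), and the uncoupling protein relatives Slc25a27 (0 for both probes) and Slc25a30 (2). Further undetected probes belonged to Slc25a13 (1 array), Slc25a15 (1), Slc25a20 (0) and Slc25a24 (2 and 0). Slc25a4 encodes the adenine nucleotide carrier known as the main form of the heart, yet its single probe (ILMN_1225312) was detected on 0 arrays. Its deposited intensity was 0.374, 2.54, 0.079 and 1.80 in heterozygotes 1 to 4 and -1.13, 1.46, -1.28 and 5.85 in wild types 1 to 4, all near 0 on a background-subtracted scale. The sequence of the probe was not analysed here, so this value measures the probe and gives no level for the transcript.

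Ranked by mean deposited intensity, the brightest carrier probe was that of Slc25a5 (7653), rank 111 of 25697. It was followed by the brighter probe of Slc25a3 (4351), the brightest of Slc25a20 (3888) and the brightest of Slc25a11 (2644). The first 3 lay in the top 1% of all probes and 6 carrier probes in the top 5%, the others being the dimmer Slc25a3 probe and the brighter pair of Slc25a11 probes. Dimmer were Slc25a12 (832), Slc25a38 (655) and the iron carrier Slc25a28 (447). Brightness depends on the probe as well as the transcript, since the 3 probes of Slc25a20 averaged 3888, 81.8 and -0.630. The order is therefore one of probe signals.

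**Figure D1:**
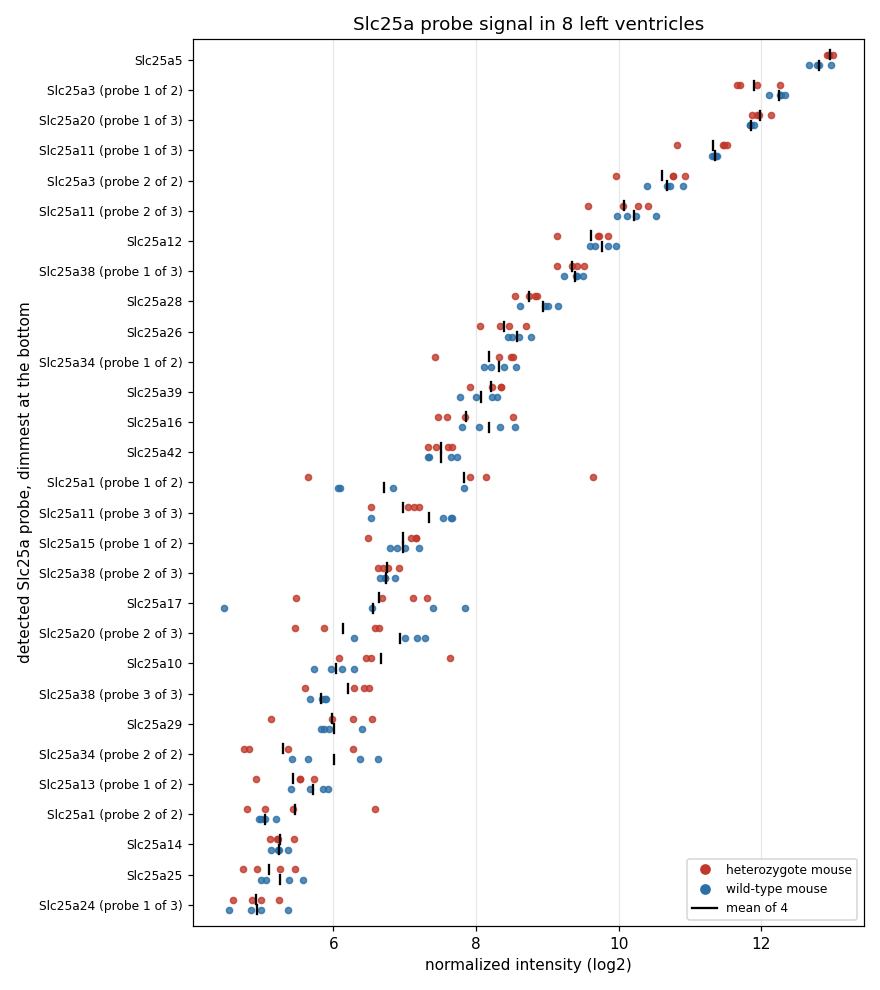
Normalized intensity (log2, horizontal axis) of 29 detected Slc25a probes in each mouse, ordered by mean, with heterozygotes in red, wild types in blue and a black line at each mean of 4. The genotypes overlapped for every probe, and the widest spreads were those of Slc25a1 and Slc25a17.

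No carrier probe passed the test between the genotypes. Each difference is the mean of the heterozygotes less that of the wild types, in log2 intensity after normexp background correction and quantile normalization. They were tested with limma over all 10547 detected probes, with Benjamini-Hochberg adjustment at 0.05. Of the 31 detected carrier probes 0 passed, and the adjusted p ran from 0.947 to 1.00 (limma). Of all 10547 probes 0 passed (0%). At an unadjusted p under 0.05, 1 carrier probe was lower, against 2.64% of all probes, and 0 were higher, against 2.04%. The one was a dim probe of Slc25a20. In 0 carrier probes did all heterozygotes lie above all wild types (1.53% of all probes), and in 0 did all lie below (1.14%). With an exact permutation test (two-sided) on the deposited intensities, the smallest p of a carrier was 0.0857, where 4 against 4 can reach 0.0286, and 0 were under 0.05 (2.16% of all probes). In deposited intensity, too, the genotypes overlapped for every carrier, where 1.83% of all probes had every heterozygote on top and 0.332% every wild type.

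The differences were mixed in sign and mostly small, with 20 of 31 within 0.2 of 0. They ran from -0.80 to 1.13 with a median of -0.03, and the median over all probes was 0.00. Of the 31 probes, 19 were below 0 (61.3%, against 49.9% of all probes) and 12 above (50.1% of all probes). The split moved with 1 mouse and with the scaling: without heterozygote 3 it was 12 below and 19 above, and with median scaling, which put the median of all probes at 0.14, 8 below and 23 above. The median SE was 0.20, and for 25 of 31 probes the 95% interval lay between -1 and 1 on the normalized scale. For the bright ones among them a doubling or halving of signal thus lay outside it. For dim probes the offset of the background correction makes such a change smaller than 1 on this scale, so it is not excluded. In simulated data of the same size, the test recovered 8% of probes changed by 0.5 on the log2 scale, 60% at 1 and 92% at 2. It also called 8 unchanged probes. The simulated probes varied independently and no mouse stood apart, unlike the arrays here, so these rates are not those for the carriers.

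**Figure D2:**
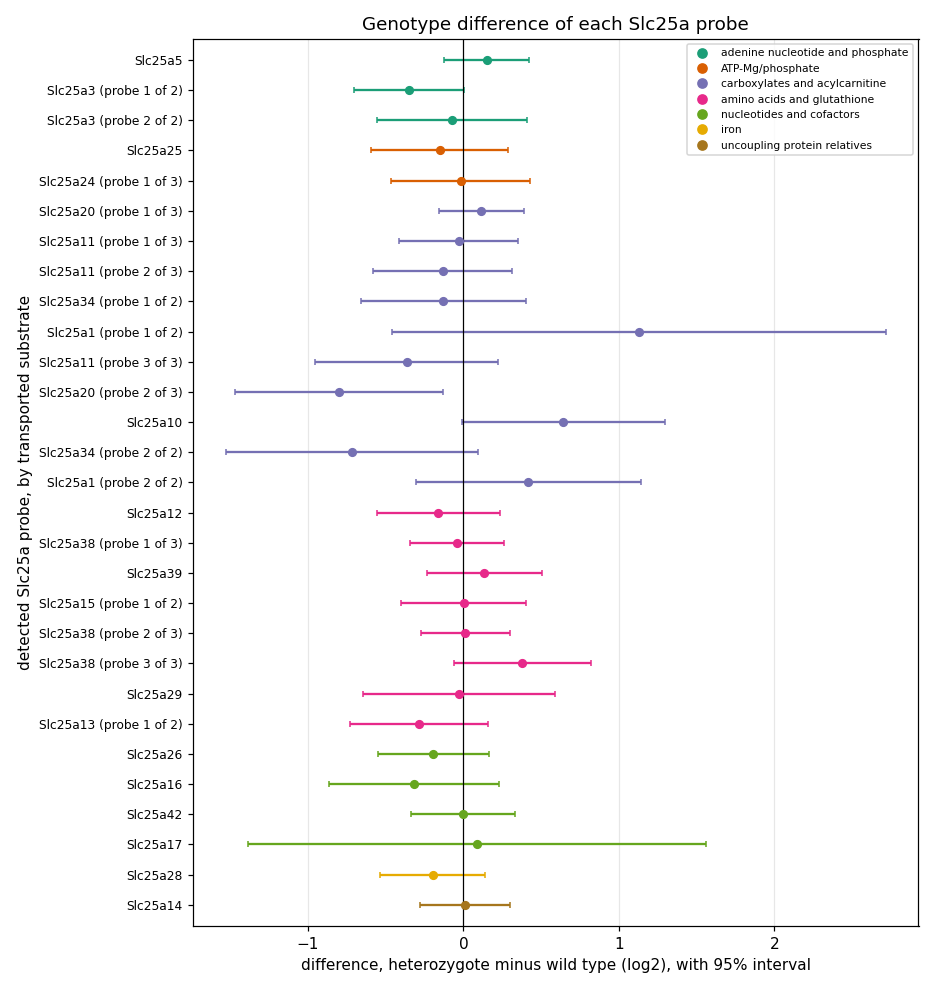
Difference between heterozygotes and wild types for 29 detected Slc25a probes (log2, horizontal axis), with its 95% interval, coloured by transported substrate. All intervals cross 0 except that of the second Slc25a20 probe, and the widest belong to Slc25a1 and Slc25a17.

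Among the carriers of adenine nucleotides and phosphate, Slc25a5 was bright and even. Its probe (ILMN_2660099) read 8481, 8081, 6938 and 9373 in heterozygotes 1 to 4 and 5329.9, 7776, 8090.2 and 7159 in wild types 1 to 4. The lowest mouse was wild type 1, whose array was the dimmest by median intensity, and the genotypes overlapped. After normalization its SD was 0.04 among heterozygotes and 0.12 among wild types (n = 4 each), and the difference was 0.15 (95% interval -0.13 to 0.42).

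Slc25a3, the phosphate carrier, had a pair of bright probes that ordered the mice differently. The brighter probe (ILMN_2751046) read 3776, 3716, 4687 and 3834 in heterozygotes and 3470.1, 5365, 5212 and 4744 in wild types. After normalization heterozygotes 1, 2 and 4 lay below all wild types and heterozygote 3 among them, with a difference of -0.35 (95% interval -0.71 to 0.0049). Without heterozygote 3 it was -0.47, still with an adjusted p of 0.609 (limma). With each array divided by its 75th percentile, all heterozygotes lay below all wild types (exact permutation p = 0.0286, 0.969 adjusted over all probes).

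The dimmer Slc25a3 probe (ILMN_2960467) read 1937, 1691, 974 and 2294 in heterozygotes and 1260.1, 1459, 1719 and 1750.5 in wild types. Here heterozygote 3 was the lowest of 8 mice, where the brighter probe had it highest among the heterozygotes. The difference was -0.07 (95% interval -0.56 to 0.41), and 0.14 without heterozygote 3. The gene is known to give splice forms that differ in muscle and other tissues. Which form each probe reads was not analysed here.

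Slc25a20, the carnitine-acylcarnitine carrier, was bright and varied little. Its brightest probe (ILMN_3138499) read 4249.9, 3685, 3779.7 and 5188 in heterozygotes and 2835, 4001, 3858 and 3508 in wild types. After normalization the wild types spanned 11.84 to 11.90, and the difference was 0.12 (95% interval -0.16 to 0.39), the smallest SE among the carriers (0.12). A dimmer probe (ILMN_3061070) differed the other way. It read 26.5, 72.2, 100.04 and 48.6 in heterozygotes and 91.7, 70.7, 146 and 98.7 in wild types, lowest in heterozygotes 1 and 4. After normalization wild types 1, 3 and 4 lay above all heterozygotes, and wild type 2 lay among them. The difference was -0.80 (95% interval -1.47 to -0.13), with an unadjusted p of 0.0236 and an adjusted p of 0.947 (limma). It ran from -1.02 to -0.57 with 1 mouse left out. The last Slc25a20 probe (ILMN_2664821) was detected on 0 arrays, at -3.96, 2.66, -5.25 and 0.644 in heterozygotes and -2.16, -0.311, 1.31 and 2.03 in wild types. The probe with the smallest p of the family was thus a dim one, and the bright probe of the same gene had an interval that reached from below to above 0.

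Slc25a11, the oxoglutarate-malate carrier, was read by 3 detected probes. The brightest (ILMN_3010110) read 3209.8, 2658, 1752 and 3515 in heterozygotes and 2039, 2807, 2858 and 2316 in wild types. Heterozygote 3 was the lowest mouse, and after normalization the other heterozygotes (11.46 to 11.52) lay just above all wild types (11.31 to 11.38). The difference was -0.03 (95% interval -0.41 to 0.35), or 0.14 without heterozygote 3.

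The second Slc25a11 probe (ILMN_3010109) read 1372, 1011, 753 and 1626 in heterozygotes and 879, 1088, 1164 and 1300.2 in wild types, again lowest in heterozygote 3, and differed by -0.13. The dimmest (ILMN_2600053) read 131, 121, 91.8 and 139 and 133, 86.7, 180.2 and 164, with wild type 2 and heterozygote 3 at the bottom. Its difference was -0.37 (95% interval -0.95 to 0.22), -0.64 without wild type 2 and -0.22 without heterozygote 3. The brighter pair lay within 0.15 of 0 and changed sign when heterozygote 3 was left out.

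The aspartate-glutamate carriers of the same shuttle did not separate the genotypes. Slc25a12, the form of heart and brain, read 928, 878, 569 and 1007 in heterozygotes and 579, 991, 1036 and 673 in wild types, lowest in heterozygote 3 and wild type 1 before normalization. The difference was -0.16 (95% interval -0.56 to 0.23), and -0.01 without heterozygote 3. Slc25a13, the form of liver, was dim in the ventricle, with its detected probe at 29.1, 33.3, 19.2 and 34.1 and 30.6, 30.2, 46.8 and 29.7. Heterozygote 3 was again the lowest and wild type 3 the highest, and the difference was -0.29 (95% interval -0.73 to 0.16), or -0.11 without heterozygote 3. The other Slc25a13 probe, detected on 1 array, read 3.63, -2.16, -1.05 and 3.70 and 0.824, 1.55, 13.6 and 2.81. Slc25a34, whose substrate is not settled, differed by -0.13 (95% interval -0.66 to 0.40) on its brighter probe, and by 0.12 without heterozygote 3. On the dimmer one (ILMN_3129337), which read 9.98, 55.3, 16.4 and 28.4 and 59.5, 39.3, 70.5 and 22.9, heterozygotes 1 and 3 were the lowest mice and the others overlapped. That difference was -0.71 (95% interval -1.53 to 0.10).

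The citrate carrier Slc25a1 and the dicarboxylate carrier Slc25a10 had the largest positive differences, and these shrank without heterozygote 3. Citrate exported by Slc25a1 is a source of cytosolic acetyl-CoA for fatty acid synthesis, and both genes are known for high levels in fat. The brighter Slc25a1 probe (ILMN_2919263) read 241, 30.2, 786 and 321 in heterozygotes and 37.2, 236, 54.3 and 85.7 in wild types. Heterozygote 3 was the highest mouse and heterozygote 2 the lowest, so the heterozygotes enclosed the wild types. The difference was 1.13 (95% interval -0.46 to 2.72) with an adjusted p of 0.947 (limma). It was 0.54 without heterozygote 3 and 1.86 without heterozygote 2.

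The dimmer Slc25a1 probe (ILMN_2619846) read 15.6, 9.95, 95.1 and 31.2 and 12.0, 19.6, 15.8 and 17.4, with heterozygote 3 far above the rest, and differed by 0.42 (95% interval -0.31 to 1.14), or 0.05 without heterozygote 3. Slc25a10 (ILMN_2730797) read 73.4, 46.4, 202 and 90.1 and 27.4, 62.2, 48.8 and 53.2, again highest in heterozygote 3. Heterozygotes 1, 3 and 4 lay above all wild types and heterozygote 2 among them. Its difference was 0.64 (95% interval -0.01 to 1.29), or 0.32 without heterozygote 3.

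Markers of fat cells varied with these carriers. Of 9 adipocyte markers on the array 6 were detected, namely Adipoq, Cidec, Cfd, Lep, Cidea and Ucp1. Of these 4 were higher in heterozygotes with 0 passing, while Retn and Fabp4 were detected on 0 arrays. The summed deposited intensity of the 6 ran from 1327 to 28178 in heterozygotes and from 4065 to 11861 in wild types. It was highest in heterozygote 3 and lowest in heterozygote 2. Over 8 mice the brighter Slc25a1 probe correlated with the mean of these markers at r = 0.91 (exact permutation p = 8.43e-04, 0.0261 adjusted over 31 carrier probes) and rho = 0.90 (exact p = 0.00456, adjusted 0.0707). The dimmer probe gave r = 0.84 (exact p = 0.00278, adjusted 0.0431) and rho = 1.00 (exact p = 4.96e-05, the smallest 8 mice can give, adjusted 0.00154). Slc25a10 gave r = 0.78 (exact p = 0.03, adjusted 0.155) and rho = 0.88 (exact p = 0.00724, adjusted 0.0748). Without the 2 mice farthest from the median, heterozygotes 2 and 3, r was 0.81, 0.84 and 0.78. The 2 probes of Slc25a1 were the only ones of 31 with an adjusted p under 0.05 for Pearson's r. Relations of the opposite sign, close in size to that of Slc25a10, were seen for Slc25a13 (r = -0.79), Slc25a12 (r = -0.78) and the dimmer Slc25a34 probe (r = -0.75), each with an adjusted exact permutation p of 0.155. In all, 6 of 31 probes had an unadjusted p under 0.05. Other detected probes were not correlated with the markers, so these counts have no share of all probes beside them. The relation was examined after the values of these carriers were seen, and 4 mice per genotype are too few to give it within a genotype. The part of fat cells in the genotype differences was not tested. Acly, the enzyme that splits exported citrate, named after its values were seen, read 4252, 1000.2, 11123 and 5559 in heterozygotes and 791, 3823, 1152 and 2549.7 in wild types, again highest in heterozygote 3.

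**Figure D3:**
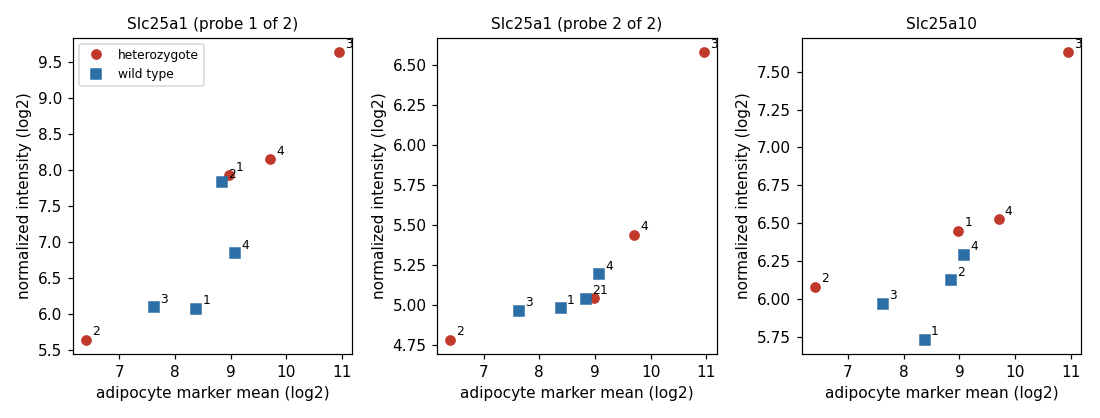
Normalized intensity (log2) of both Slc25a1 probes and of Slc25a10 against the mean of 6 adipocyte markers (log2) in 8 mice, numbered within genotype, with heterozygotes as red circles and wild types as blue squares. Heterozygote 3 is highest on both axes in each panel, and heterozygote 2 is lowest on the marker axis.

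The promoters of Slc25a1 and Slc25a10 are shown because these carriers varied together across the mice. They are 250 bases before to 50 after the gene start, from RefSeq on GRCm38.p6, read on the strand of the gene. Capitals mark matches on either strand to the E-box CACGTG, the CCAAT box CCAAT or the GC box GGGCGG; the sterol element TCACNCCAC was searched too and has no match in either.
Slc25a1, chr16:17928170-17928469, minus strand: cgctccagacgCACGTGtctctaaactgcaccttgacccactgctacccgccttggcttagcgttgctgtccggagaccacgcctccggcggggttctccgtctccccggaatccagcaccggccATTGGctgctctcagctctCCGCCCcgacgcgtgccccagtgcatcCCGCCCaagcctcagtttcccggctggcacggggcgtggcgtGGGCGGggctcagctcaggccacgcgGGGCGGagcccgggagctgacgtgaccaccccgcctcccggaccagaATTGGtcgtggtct
Slc25a10, chr11:120491587-120491886, plus strand: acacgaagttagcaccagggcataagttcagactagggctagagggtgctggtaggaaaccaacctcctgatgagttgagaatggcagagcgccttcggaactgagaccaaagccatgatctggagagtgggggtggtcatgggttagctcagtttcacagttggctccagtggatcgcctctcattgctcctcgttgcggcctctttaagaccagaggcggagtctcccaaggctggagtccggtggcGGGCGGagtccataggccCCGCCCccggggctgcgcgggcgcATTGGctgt
The Slc25a1 window held 1 E-box, 2 CCAAT boxes and 4 GC boxes, and the Slc25a10 window 0, 1 and 2. Over 27025 genes with a promoter in the table, 7.24% held the E-box, 37.9% the CCAAT box, 35.9% the GC box and 1.22% the sterol element. Among the 20 of 22 detected carrier genes that matched the table, 3, 10, 18 and 0 held them. These are matches of letters in 1 window per gene, and base composition, which also sets such counts, was not tested.

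Carriers of amino acids and glutathione, counted with Slc25a12 and Slc25a13, had 4 of 8 detected probes above 0 and 4 below. Slc25a38 is a glycine carrier needed for haem synthesis, and its brightest probe (ILMN_2946905) read 716, 633, 569 and 867 in heterozygotes and 470.3, 645, 706 and 631 in wild types. The genotypes overlapped with a difference of -0.04 (95% interval -0.34 to 0.26). Of its dimmer probes, one differed by 0.01. The other (ILMN_2946901) read 76.3, 56.3, 42.2 and 82.7 and 25.8, 50.4, 43.2 and 37.2, where heterozygotes 1, 2 and 4 were above all wild types and heterozygote 3 was not. That difference was 0.38 (95% interval -0.06 to 0.82), and 0.58 without heterozygote 3 (adjusted p = 0.609, limma). The erythroid markers, whose cells use glycine for haem, summed to between 9267 and 23656 in heterozygotes and 14272 and 25429 in wild types, lowest in heterozygote 3. Of 8 on the array 6 were detected, 5 of them higher in heterozygotes with 0 passing, and Epb42 was detected on 0. Their part in the Slc25a38 values was not tested.

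The ornithine carrier Slc25a15 differed by 0.0019 (95% interval -0.40 to 0.40), with heterozygote 3 at 88.9 below the other heterozygotes (117 to 151) in deposited intensity, and by 0.17 without that mouse. Slc25a39, which carries glutathione, differed by 0.14 (95% interval -0.23 to 0.50), or 0.24 without heterozygote 3, and Slc25a29, a carrier of basic amino acids, by -0.03 (95% interval -0.65 to 0.59). After normalization heterozygote 3 was the lowest of the 8 mice for Slc25a15 and Slc25a29, and the Slc25a29 difference was 0.26 without it.

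Among carriers of nucleotides and cofactors, Slc25a26, which imports the methyl donor S-adenosylmethionine, differed by -0.19 (95% interval -0.55 to 0.17), Slc25a16 by -0.32 (95% interval -0.86 to 0.23), and the coenzyme A carrier Slc25a42 by -0.0017 (95% interval -0.34 to 0.33). Without heterozygote 3 these differences were -0.08, -0.19 and 0.06.

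Slc25a17, a carrier of peroxisomes and not of mitochondria, varied more than any other probe apart from Slc25a1. It read 88.7, 113, 37.0 and 172 in heterozygotes and 4.34, 170.0, 81.9 and 189 in wild types. Wild type 1 alone was not detected, and heterozygote 3 was the lowest of its group. The SD after normalization was 1.498 among wild types and 0.83 among heterozygotes (n = 4 each), and the difference of 0.09 (95% interval -1.39 to 1.56) became -0.62 without wild type 1 and 0.52 without wild type 4. These 2 mice held the lowest and the highest value of the 8.

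The remaining carriers lay within 0.2 of 0. Slc25a28, which brings iron into the matrix, averaged 447 ± 71.8 in heterozygotes and 447 ± 92.4 in wild types (SD, n = 4 each) in deposited intensity, and differed by -0.20 (95% interval -0.54 to 0.14) after normalization. Slc25a24 and Slc25a25, calcium-regulated carriers of ATP-Mg for phosphate, were dim and differed by -0.02 and -0.15. For Slc25a24, 1 of 3 probes was detected, on 5 arrays. Slc25a14, a relative of the uncoupling proteins, differed by 0.01 (95% interval -0.28 to 0.30).

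Across the mice, many carriers were lowest in heterozygote 3. After quantile normalization it was the lowest of 8 mice for 14 of 31 carrier probes (45.2%), against 27.5% of all detected probes, and the highest for 3, against 19%. The 14 included Slc25a11, Slc25a12, Slc25a15, Slc25a34 and all 3 probes of Slc25a38, and the 3 were Slc25a1 with both probes and Slc25a10. In deposited intensity, where its array was the brightest by median, it was the lowest for 9 of 31 (9.99% of all detected probes) and the highest for 4 (23.9%). Slc25a15 and Slc25a38 were not among those 9. The mean of the 31 probes was 7.72 in heterozygote 3 and 7.81 to 7.96 in the other mice (log2). Genes of the respiratory chain and ATP synthase had their lowest mean in the same mouse, 11.15 against 11.39 to 11.58 (83 genes). So did cardiomyocyte markers, at 11.71 against 11.88 to 12.06 (7 genes). In deposited intensity, however, their sum was lowest in wild type 1 (66135), and heterozygote 3 (70628) lay within the wild-type range. Macrophage markers were 8 of 8 detected and all higher in heterozygotes with 0 passing. Their deposited sum was 2491 in heterozygote 3 against 549 to 1203 elsewhere. In log2 their mean was 7.68 in that mouse. The other heterozygotes, at 6.49 to 6.72, overlapped the wild types, at 6.13 to 6.66. Of the detected markers of other cells, 6 of 6 for fibroblasts, 3 of 3 for thymus and T cells, 1 of 1 for lung, 1 of 5 for smooth muscle and 0 of 5 for atrium were higher in heterozygotes, with 0 passing. Of all genes, 46.9% were below 0. The fibroblast and T cell marker means were highest in heterozygote 3, at 9.38 and 6.90 (log2). The other heterozygotes, at 8.88 to 8.99 and 4.72 to 4.91, lay among the wild types, at 8.76 to 9.10 and 4.61 to 5.85. Atrial and smooth muscle markers stood out in heterozygote 3 and wild type 2. The atrial mean was 12.95 and 12.79 in these mice, against 10.38 to 12.10 in the rest (log2). For smooth muscle it was 9.95 and 10.44, against 8.71 to 9.24. The part of these markers in the carrier values was not tested. The median SD of a carrier probe over 8 mice was 0.29, against 0.26 over all detected probes.

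**Figure D4:**
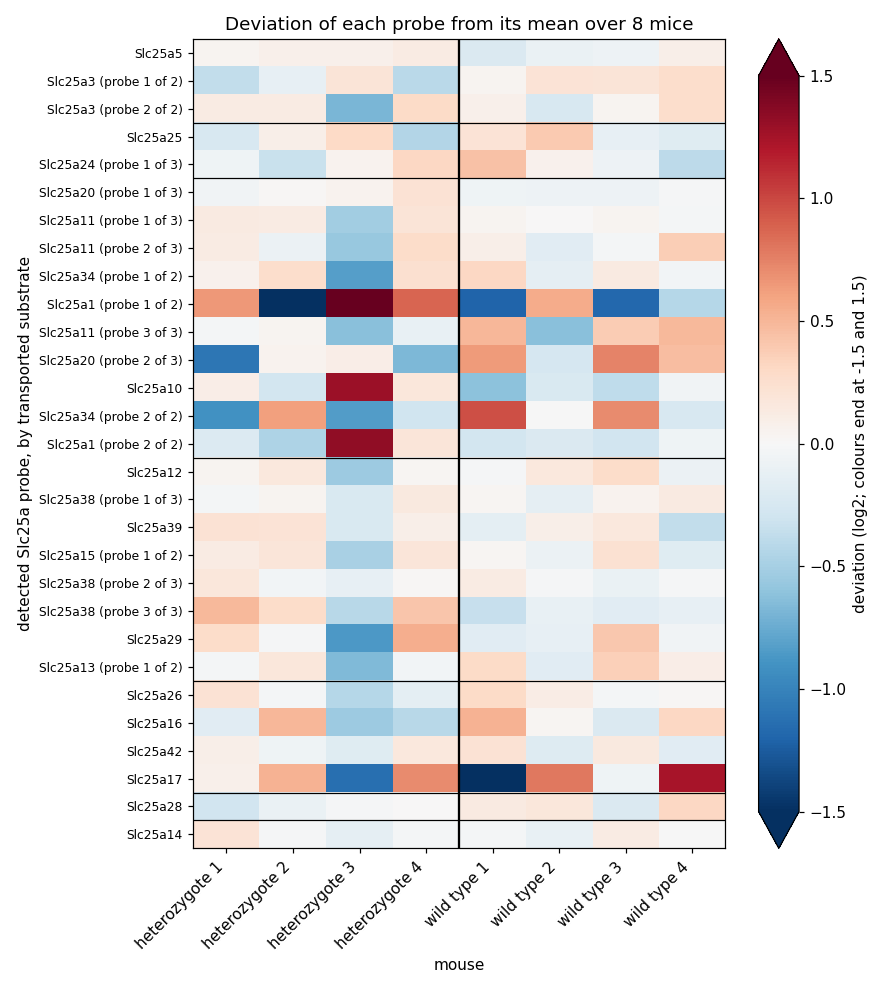
Deviation of 29 detected Slc25a probes, each from its own mean over 8 mice (log2, colour), with mice in columns and probes in rows grouped by substrate. In heterozygote 3 most probes are blue, and Slc25a1 and Slc25a10 are the darkest red, while Slc25a17 is lowest in wild type 1.

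Probes of 1 gene did not always run together. In 7 genes more than 1 probe was detected, and in 3 of them, Slc25a20 and Slc25a38 included, the signs differed. The brightest probe per gene gave 13 of 22 genes below 0 and 9 above, with 0 at an unadjusted p under 0.05 (limma).

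A further 15 carrier genes are on the array under older symbols, matched through RefSeq synonyms, and lie outside the symbol rule. Of these 10 were detected, 8 above 0 and 2 below, with 0 passing. The share of these 10 below 0 was 20%, against 46.9% of all genes. Slc25a37, the iron carrier known from red cell precursors, is listed as Mscp and read 165, 159, 111 and 154 in heterozygotes and 64.7, 198, 77.6 and 63.5 in wild types, with a difference of 0.41 (95% interval -0.17 to 1.00). Wild type 2 was the highest mouse, as it was for the sum of the erythroid markers. Heterozygote 3 was the lowest for that sum, but for Slc25a37 it lay above wild types 1, 3 and 4. The part of red cells in the Slc25a37 values was not tested. The smallest p were those of Slc25a36, a pyrimidine nucleotide carrier, at -0.85 (95% interval -1.58 to -0.13), and Slc25a35 at 0.61 (95% interval 0.09 to 1.13), both with an adjusted p of 0.947 (limma). Slc25a35 was highest in heterozygotes 3 and 4, at 91.2 and 83.3, against 12.8 to 43.6 in the other mice. Among relatives without the Slc25a symbol, uncoupling protein Ucp2 had no detected probe, and Ucp3 differed by -0.47 (95% interval -1.01 to 0.07). Ucp1 of brown fat, which is also among the adipocyte markers above, differed by 0.86 (95% interval -1.65 to 3.37).

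Partners of the carriers gave 0 passing genes in every list. Outer membrane channels and kinases had 4 of 9 detected genes above 0 and 5 below (median -0.13), among them the channels Vdac1 at 0.0028 and Vdac3 at -0.50 (95% interval -0.98 to -0.02), hexokinase Hk1 at -0.56, the fatty acid entry enzyme Cpt1b at -0.24 and mitochondrial creatine kinase Ckmt2 at 0.02. Import machinery for carriers had 1 of 8 above 0 and 7 below (median -0.08), with the outer membrane receptor Tomm70a at -0.31. Shuttle and matrix enzymes had 5 of 12 above and 7 below (median -0.03), with glutamate dehydrogenase Glud1 at -0.55. The cytosolic aminotransferase Got1 of the malate-aspartate shuttle was at -0.41 (95% interval -0.72 to -0.09). The glycerol phosphate shuttle enzyme Gpd2 was at 1.04 (95% interval -0.01 to 2.10). In deposited intensity Gpd2 was highest in heterozygote 3, at 961, against 101 to 654 in the other mice. Got1 was lower in all heterozygotes than in any wild type after normalization, with an adjusted p of 0.947 (limma). Other inner membrane transporters had 3 of 8 above and 5 below (median -0.05), with the ion exchanger Letm1 at 0.25 and Abcb10 at -0.25. The respiratory chain and ATP synthase had 23 of 83 above and 60 below (median -0.09), with Cox7b, a subunit of cytochrome oxidase, at -0.79 (95% interval -1.14 to -0.43) and 5 genes (6.02%, against 1.84% of all genes) lower at an unadjusted p under 0.05 (limma), beside 13 of 22 carrier genes below 0 with a median of -0.02. The mean of the 83 respiratory chain and ATP synthase genes was 11.15 in heterozygote 3 and 11.45 to 11.48 in the other heterozygotes (log2). In wild types it was 11.39 to 11.58. The counts of this list without heterozygote 3 were not computed. Over all 8146 genes the median was 0.01, with 46.9% below 0.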

How the data were processed

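Each of 8 left ventricles gave RNA for 1 Illumina bead array. Genotypes and mouse numbers are those of the sample labels. For each probe and array the authors deposited a mean intensity and a detection p-value, per the file headers. These intensities are linear and already background-subtracted, since 23.0% to 27.2% of probes per array lay below 0. The authors also deposited normalized intensity values, by a method that no label or header states. They keep the rank order of each mouse's non-normalized column (Spearman 1.00) and served as an alternative. The scanner software is named in no label or header. The gene and allele of the knock-in, and 2 carrier probes counted in the totals, are not reported here. The number of arrays limits the precision.

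Intensities were corrected with normexp (limma nec with detection p-values, offset 16), quantile-normalized and taken to log2. These steps pull differences of dim probes towards 0 and remove shifts common to all probes. The 10547 probes that met the detection rule (p under 0.01 on 4 or more arrays) entered lmFit and eBayes, each tested two-sided. Adjustment was by Benjamini-Hochberg at 0.05, and intervals are 95%. Simulated data, with 50 probes changed at each size, served to check the test. Partner lists used the brightest detected probe per gene. Of 18120 symbols 12036 were current in RefSeq (GRCm38.p6), 5207 were synonyms of 1 gene and 877 were kept as in the file. No chip or scan batch was analysed here.

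The members, lists and named genes were chosen with earlier results of these data known. All detected carriers could be named. Values per mouse were given for the 8 brightest probes, the 4 with the smallest p in each direction and every probe of Slc25a3, Slc25a4, Slc25a5, Slc25a11, Slc25a12, Slc25a13, Slc25a20 and Slc25a37, with up to 3 partners per list. Slc25a17 and Acly were added for their spread after their values were seen. Marker lists also covered lung, thymus, fibroblast, smooth muscle and atrial cells. Alternatives covered the normalization and background steps, the authors' own values, other filters on detection, the brightest probe per gene, weights per array, trended robust eBayes, the mouse number as a replicate block and mice left out. The work used limma 3.58.1 in R 4.3.3, and Python 3.11.15 with matplotlib 3.10.9 and pandas 2.3.3.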

Additional observations from a re-analysis of the deposited data

Results flagged for a closer look

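Dixon's gap test at the 95% level was applied to the normalized log2 intensity of each carrier probe within each genotype of 4 mice. It marked 3 of 62 groups, and chance alone marks about 1 in 20, or 3.1. The brightest Slc25a11 probe, of the oxoglutarate-malate carrier, was 10.81 in heterozygote 3 and 11.46 to 11.52 in the other heterozygotes. The ornithine carrier Slc25a15 was 6.48 in heterozygote 3 and 7.09 to 7.15 in the others. The dimmest detected Slc25a11 probe was 6.53 in wild type 2 and 7.54 to 7.66 in the other wild types. In deposited intensity these were 1752 against 2658 to 3515, 88.9 against 117 to 151, and 86.7 against 133 to 180.2.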

How the results depend on the processing

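Under 13 alternative settings and with each of 8 mice left out, no carrier probe reached an adjusted p under 0.05. The smallest was 0.136 (limma, the dim Slc25a20 probe, with array weights that counted heterozygote 3 at 0.273). For the 29 probes shown singly, 41 of 364 differences under the 13 settings had the opposite sign, as had 27 of 232 with 1 mouse left out, and 14 of 29 probes kept theirs throughout. Probes of a gene are numbered from the brightest, and the cause of each shift was not tested.

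Scaling moved the signs most. With median scaling 8 probes lay below 0 and 2 were higher at an unadjusted p under 0.05, and without normalization between arrays these were 7 and 2 (4.02% and 3.67% of all probes were higher), while the median of all probes became 0.14 and 0.16 and the share of all probes below 0 25.6% and 23.4%. Above 0 with median scaling were Slc25a3 probe 2 at 0.082, Slc25a11 probe 1 at 0.099, Slc25a11 probe 2 at 0.040, Slc25a12 at 0.036, Slc25a24 at 0.053, Slc25a26 at 0.0056, Slc25a29 at 0.099, Slc25a34 probe 1 at 0.067, Slc25a38 probe 1 at 0.16, Slc25a42 at 0.17. Above 0 without normalization were Slc25a3 probe 2 at 0.10, Slc25a11 probe 1 at 0.12, Slc25a11 probe 2 at 0.058, Slc25a12 at 0.055, Slc25a24 at 0.071, Slc25a26 at 0.024, Slc25a28 at 0.0095, Slc25a29 at 0.12, Slc25a34 probe 1 at 0.085, Slc25a38 probe 1 at 0.18, Slc25a42 at 0.19. Array weights put 11 below 0, with 4 higher and 3 lower at an unadjusted p under 0.05 (6.71% and 8.01% of all probes), and reversed Slc25a3 probe 2 at 0.14, Slc25a11 probe 1 at 0.11, Slc25a11 probe 2 at 0.10, Slc25a14 at -0.018, Slc25a24 at 0.12, Slc25a29 at 0.22, Slc25a34 probe 1 at 0.047, Slc25a38 probe 1 at 0.038, Slc25a42 at 0.034. Single reversals were Slc25a24 at 0.0045 with cyclic loess, Slc25a17 at -0.021 with offset 50, Slc25a15 at -0.0017 with a floor in place of normexp, and Slc25a15 at -0.0020, Slc25a24 at 0.021, Slc25a42 at 5.5e-05 in the authors' values. There 1 probe (Slc25a5) did not overlap between genotypes, against 2.69% of all probes.

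At an unadjusted p under 0.05, 2 probes were lower with offset 50, with the floor, without the detection filter, with detection required on all 8 arrays, and with trended robust eBayes, which also had 1 higher (1.89% of all probes), and 0 were lower with the brightest probe per gene. Of all probes 2.34% to 2.70% were lower under these 5 settings and 1.95% with the brightest probe. The exact test on intensities divided by the 75th percentile had 1 carrier probe under 0.05, with an adjusted p of 0.969. The share of all probes under this test was not counted. Without both heterozygote 3 and wild type 2, 1 was higher and 3 lower (4.66% and 5.42% of all probes). Without this pair, 5 of 31 carrier probes did not overlap between genotypes, against 15.9951% of all probes. The reversed differences were Slc25a3 probe 2 at 0.050, Slc25a11 probe 1 at 0.14, Slc25a12 at 0.021, Slc25a29 at 0.21, Slc25a34 probe 1 at 0.054. With each mouse left out, 0 to 2 probes were higher (2 without heterozygote 2, 1 without heterozygote 3 or wild type 4) and 0 to 3 lower (3 without heterozygote 2, 2 without heterozygote 3 or wild type 2, 0 without heterozygotes 1 or 4 or wild types 1 or 3) at an unadjusted p under 0.05, 12 to 21 lay below 0 (12 without heterozygote 3), 0 to 3 did not overlap (3 without heterozygote 2 or 3 or wild type 4, against 4.04% to 8.55% of all probes), and the median was -0.12 to 0.05. Of all probes, 3.22% were higher and 4.84% lower without heterozygote 2, 4.04% and 3.73% without heterozygote 3, and 1.32% to 2.92% and 1.39% to 4.43% without another mouse. Probes that changed sign with 1 mouse or that pair left out ranged over Slc25a3 probe 2 -0.18 to 0.14, Slc25a11 probe 1 -0.10 to 0.14, Slc25a11 probe 2 -0.24 to 0.036, Slc25a12 -0.24 to 0.021, Slc25a14 -0.053 to 0.056, Slc25a15 -0.059 to 0.17, Slc25a17 -0.62 to 0.74, Slc25a24 -0.15 to 0.13, Slc25a29 -0.21 to 0.26, Slc25a34 probe 1 -0.24 to 0.12, Slc25a38 probe 1 -0.095 to 0.030, Slc25a38 probe 2 -0.044 to 0.055, Slc25a42 -0.066 to 0.071. The mouse numbers gave no sign of pairing (same-numbered deviations correlated at -0.42 to 0.211, and 1 of 4 numbers matched best with its own). Pairing by litter was not tested. The number as a replicate block left the counts as they were (0 adjusted calls, 1 lower at an unadjusted p under 0.05), and the adjusted p of the dim Slc25a20 probe was 1.00 (limma).

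The 8 arrays limit the precision: probes near the background, such as Slc25a24 (detected on 5 arrays), carry differences pulled towards 0 by the offset.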
